A study of Mus musculus with 18 samples.

Results

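The comparison described here is that of cells carrying the hairpin shRNF185.1 with control cells. It uses 12 of the 18 RNA libraries of the series, the 6 labelled shRNF185.1 and the 6 labelled plko, and every gene with enough counts to be tested, 14309 of the 47643 genes in the deposited table. The cells in every library were MPC3, a line derived from mouse prostate cancer. The plko libraries are labelled as control, and the shRNF185.1 libraries as knockdown of Rnf185. A second hairpin against the same gene, shRNF185.3, has 6 libraries of its own and is used here to ask which changes it did not share. The labels place libraries 1 and 2 of each group in batch 1, libraries 3 and 4 in batch 2, and libraries 5 and 6 in batch 3. The labels do not say whether the 6 libraries of a group came from separate infections or clones, so the spread between these libraries may be technical. The deposited counts are named for ComBat-Seq, a batch adjustment, and the main fit has no batch term. The p-values therefore measure only the spread left in the adjusted counts, and may be too small.

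Rnf185 encodes a RING finger ubiquitin ligase of the endoplasmic reticulum membrane that takes part in endoplasmic reticulum associated degradation, the route by which misfolded proteins are marked, pulled out of the membrane and sent to the proteasome. A short hairpin RNA is transcribed from a vector and cut into a small interfering RNA that guides cleavage of the messenger RNA it matches along its whole length. Like a microRNA, such a small RNA can also lower other messenger RNAs that match only a short stretch at its 5′ end, the seed, and that match usually lies in the 3′ untranslated region (3′ UTR). For this reason a change seen with 1 hairpin is commonly set against a second hairpin of another sequence.

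Library totals ranged from 24067000 to 43379662 counts, 3 counts corresponded to 0.0692 to 0.125 CPM (counts scaled to a common library total), and mitochondrial genes held 1.93 to 3.41% of counts. The cells had the keratins of a simple epithelium, with control means of 1200 CPM for Krt8 and 354 CPM for Krt18. They also had Hoxb13 (56.5 CPM), a marker of prostate luminal cells, whereas Epcam, Krt5, Pbsn, Tmprss2 and Msmb were at or near 0, between 0 and 0.538 CPM in every library. Of the fibroblast markers, Pdgfra (89.6 CPM), Pdgfrb (157 CPM) and Dcn (24.9 CPM) were present while Lum and Thy1 were at or near 0. The endothelial markers (Pecam1, Cdh5, Kdr, Tek) and immune markers (Ptprc, Cd3e, Itgam, Adgre1, Csf1r) lay at or below 0.414 CPM in all 12 libraries. Libraries also differed by their number: with odd against even numbers as a term in edgeR, added after the data were seen, 2086 of 14309 genes (14.6%) differed between libraries 1, 3 and 5 and libraries 2, 4 and 6. The labels do not say what sets these apart, and each group holds 3 of either kind. With this term the 388 genes described below as opposite were all still opposite, among 524, and 4737 genes were called. In bulk RNA, fewer cells of a kind and less RNA per cell cannot be told apart.

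The targeted gene fell in every shRNF185.1 library. In GENCODE M21 (GRCm38), Rnf185 spans bases 3415982 to 3452363 of chromosome 11 and is read from the minus strand. Its level in control ranged from 33.6 to 38.4 CPM with a median of 36.2, and with shRNF185.1 from 5.21 to 6.80 CPM with a median of 5.63. The groups did not overlap, and the difference on the log2 scale was -2.63 (SE 0.07), with an adjusted p of 9.3e-15 in edgeR. Col3a1, the fibrillar collagen gene named in the series title, rose from a median of 566 CPM (388 to 745) to one of 1022 CPM (919 to 1699), a log2 fold change of 1.11 (SE 0.18, edgeR adjusted p 0.000117). Its groups did not overlap either, and the log2 difference was smaller in batch 2 (0.76) than in batches 1 and 3 (1.3 and 1.25).

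Across the transcriptome, 4141 of 14309 genes (28.9%) differed from control at an adjusted p under 0.05 in edgeR's quasi-likelihood test. Of all genes tested, 2095 (14.6%) were higher and 2046 (14.3%) lower. Most of these changes were small: the median size was 0.37 on the log2 scale, and 527 genes changed by 1 or more, 361 upward and 166 downward. The large changes therefore lay mainly on the side of higher expression. Of the genes called, 3697 (89.3%) kept their sign within every batch. Libraries did not overlap between the groups for 1005 genes lying wholly above control (7.02% of genes tested) and 826 lying wholly below it (5.77%). Without batch 1 the number called was 2207, without batch 2 it was 5119 and without batch 3 it was 2926. With a batch covariate it was 3559.

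The 8 genes that rose most included antiviral genes and several enzymes and membrane proteins, with control means from 0.286 to 2.77 CPM. Oas1a, an oligoadenylate synthetase that senses double-stranded RNA, rose from a median of 0.797 CPM (0.439 to 1.35) to 11.3 CPM (5.37 to 13.7), a log2 fold change of 3.55 (SE 0.31). Ifit3, an interferon-induced protein with tetratricopeptide repeats, rose from 3.01 CPM (0.816 to 3.81) to 21.5 CPM (16.4 to 27.7), by 2.97 (SE 0.34). Every shRNF185.1 library lay above every control library for both. Ifit3b rose by 3.30, but it is a near copy of Ifit3, and how the authors' counting divided reads between them limits both values. Of these 8, Inmt, which methylates indoleamines, had the largest log2 fold change, 3.90 (SE 0.68). Its spread was wide, from 0.814 to 7.22 CPM with the hairpin against 0.0234 to 0.532 CPM in control. The others were Tmem119, a membrane protein known from microglia and bone (2.85), Slfn2, a schlafen family gene induced by interferon (2.85), Enpep, the aminopeptidase that trims angiotensin II (2.83), and Brinp3 (2.78). All 8 had adjusted p-values from 2.06e-08 to 0.000254 in edgeR, and all 8 rose with shRNF185.3 too.

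Under the same limits, the 8 genes that fell most were Rnf185 itself and 7 others. Npnt, the matrix protein nephronectin, which binds an integrin, fell from a median of 40.9 CPM (28.0 to 58.4) to 6.75 CPM (5.27 to 9.0), with a log2 fold change of -2.55 (SE 0.17). Pdgfb, a growth factor that attracts mesenchymal cells, fell from 35.2 CPM (25.8 to 36.2) to 5.51 CPM (4.37 to 8.55), with a log2 fold change of -2.49 (SE 0.17). Perp, a desmosome component and target of p53, fell from 21.2 CPM (17.2 to 33.4) to 3.65 CPM (2.78 to 6.38), also with -2.49. None of the 3 overlapped between the groups. Wdr72 (-3.13), Ctsw, a cysteine protease (-2.46), and Alcam, the adhesion molecule CD166 (-2.45), fell without overlap as well, while Vnn1, a pantetheinase (-2.16), overlapped, with 6.53 to 40.1 CPM in control and 2.78 to 8.61 CPM with the hairpin. Adjusted p-values of these genes in edgeR lay between 5.36e-09 and 0.000313. All 7 fell with shRNF185.3 as well, by 0.81 (Alcam) to 2.81 (Vnn1) on the log2 scale. Npnt, Pdgfb, Ctsw and Alcam differed between the hairpins in the direct contrast: Alcam was at 2.95 CPM and Pdgfb at 10.6 CPM on average with shRNF185.3, and the direct contrast had adjusted p-values of 4.59e-05 and 0.00162.

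**Figure D1:**
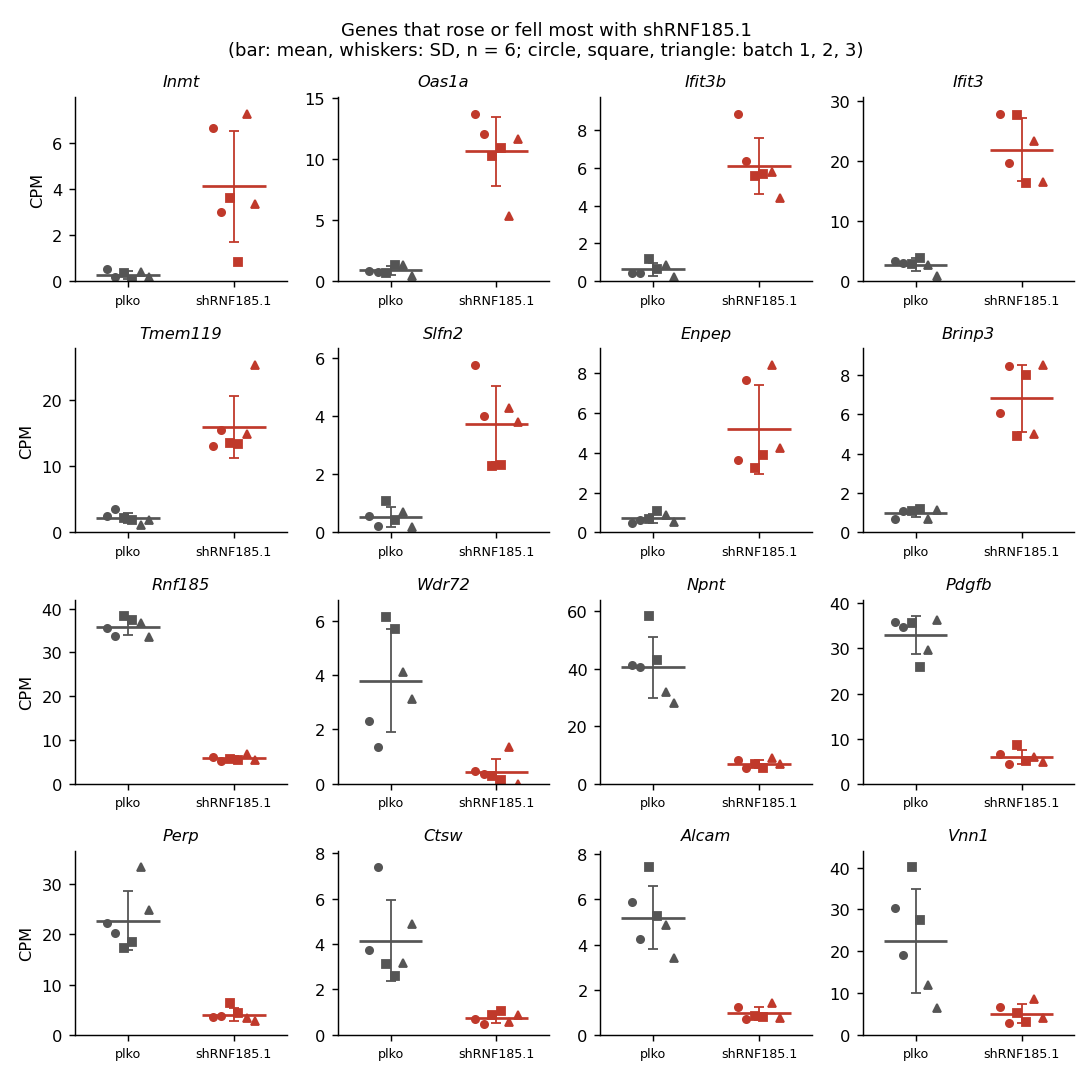
CPM (linear axes from 0) of Rnf185 and of the genes that rose or fell most with shRNF185.1, in each of the 6 plko and 6 shRNF185.1 libraries, with the mean as a bar and the SD as whiskers. The groups are apart in each panel except that of Vnn1, where they overlap, and Inmt and Wdr72 have the widest spread for their level.

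Changes not shared in direction with shRNF185.3 were taken up next. Both hairpins were compared with the same 6 control libraries, so the comparisons with control are not independent, and a difference between the hairpins was read from their direct contrast. Of the 4141 genes called with shRNF185.1, 398 had a fold change of the other sign with shRNF185.3. For 388 of them, 2.71% of all genes tested, the direct contrast between hairpins was also called, with 175 higher and 213 lower with shRNF185.1. These are named opposite genes here. For most of them shRNF185.3 was close to control: the median size of the log2 change was 0.295 with shRNF185.1 and 0.0895 with shRNF185.3, and 71 of the 388 were called with shRNF185.3 as well. Of these 71, 50 were lower and 21 higher with shRNF185.1. Among the 388, 17 changed by 1 or more with shRNF185.1, 358 had the same direction in all 3 batches, and 277 had no overlap between the libraries of the 2 hairpins. Opposite genes were chosen by calls from these same libraries, so the 358 and 277 largely restate that choice and add no support. Of all 4141 genes called, 3697 had the same direction in all 3 batches. The share of all genes tested without overlap between the hairpins is not given here. Membership of this class depended on the batches used. Leaving out batch 1 gave 144 opposite genes, 123 of them among the 388. For batch 2 these counts were 228 and 137, and for batch 3 they were 356 and 176. A batch covariate gave 288, all of them among the 388. A further class of 710 genes was called with shRNF185.1 and in the direct contrast but not with shRNF185.3, 320 higher and 390 lower. This class includes opposite genes.

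Among the genes lower with shRNF185.1 alone, Pgrmc1 stood out for its small spread. Pgrmc1 encodes a heme-binding membrane protein of the endoplasmic reticulum, and it lies on the X chromosome from 36598206 to 36606079. It ranged from 108 to 126 CPM in control (median 115), from 32.7 to 36.3 CPM with shRNF185.1 (median 35.5) and from 102 to 116 CPM with shRNF185.3 (median 111). Its log2 fold change of -1.72 (SE 0.04, edgeR adjusted p 3.11e-15) stood against -0.06 with shRNF185.3 (adjusted p 0.277), and the direct contrast had an adjusted p of 6.23e-15. Its adjusted p with shRNF185.1 was below that of Rnf185. The fall was of like size in batch 1 (-1.65), batch 2 (-1.76) and batch 3 (-1.75).

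Mapre2, which encodes the microtubule end-binding protein EB2, moved in opposite directions with the hairpins. Control libraries held 29.8 to 31.9 CPM, shRNF185.1 libraries 12.6 to 15.1 CPM and shRNF185.3 libraries 36.8 to 44.0 CPM, so that no group overlapped another. The log2 fold changes were -1.17 (SE 0.05, adjusted p 3.83e-11) and 0.40 (adjusted p 1.25e-05) in edgeR. Acbd5, a peroxisomal membrane protein that binds acyl-CoA and tethers peroxisomes to the endoplasmic reticulum, was lower with shRNF185.1 alone. Its median was 47.3 CPM in control (33.6 to 52.8), 19.3 CPM with shRNF185.1 (17.5 to 21.9) and 43.9 CPM with shRNF185.3 (41.9 to 45.5), a log2 fold change of -1.24 (SE 0.09, edgeR adjusted p 6.95e-09). Hebp2, a heme-binding protein, fell from a median of 5.27 CPM (4.30 to 7.05) to 2.72 CPM (2.13 to 3.43) and was at 6.32 CPM (5.65 to 8.52) with shRNF185.3. Tmem263 fell from 34.1 CPM (22.4 to 35.4) to 19.4 CPM (16.7 to 21) and rose to 39.6 CPM (35.7 to 47.2) with shRNF185.3. On the log2 scale these changes were -0.73 and 0.35. For both, the shRNF185.1 libraries lay below all others.

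Dcn, which encodes decorin, a small proteoglycan that binds collagen fibrils, had the largest fall among genes that shRNF185.3 left uncalled. It ranged from 11.1 to 32.0 CPM in control and from 3.71 to 9.03 CPM with shRNF185.1, a log2 fold change of -2.11 (SE 0.29, edgeR adjusted p 2.03e-05). With shRNF185.3 it was at 9.80 to 25.2 CPM. Phex, an endopeptidase of phosphate control, Rasl11b, a small GTPase, and Cgref1 fell by 1.29, 1.09 and 1.08 on the log2 scale, against changes of -0.07, -0.09 and -0.12 with shRNF185.3, none of them called. Capn6, a calpain without protease activity, fell with shRNF185.1 (log2 fold change -0.97, adjusted p 0.000198) and rose with shRNF185.3 (0.81, adjusted p 0.000573), and so did the serotonin transporter gene Slc6a4 (-0.74 and 0.70). In both of these, and in Rasl11b, the shRNF185.1 and control libraries overlapped. Sox13, a transcription factor, Psd3, an exchange factor for Arf GTPases, and Impact, an inhibitor of the kinase Gcn2, fell by 0.91, 0.86 and 0.78, against uncalled changes of 0.05, 0.11 and 0.15 with shRNF185.3. Sox13 and Psd3 also overlapped between shRNF185.1 and control. Sox13 was not called without batch 2, nor Slc6a4 without batch 1.

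The opposite genes also included some that rose with shRNF185.1. Cdx2, the intestinal homeobox factor, rose from a median of 12.6 CPM (10.3 to 17.5) to 30.1 CPM (22.5 to 32.2) and was at 11.8 CPM (9.62 to 14.7) with shRNF185.3. The rise was 1.1 on the log2 scale (SE 0.14), at an adjusted p of 1.13e-05 in edgeR. Cdh26, a cadherin, rose from 1.65 CPM (1.20 to 2.51) to 3.94 CPM (3.63 to 4.58) and was at 1.43 CPM with shRNF185.3. Il1rl1, the receptor of interleukin 33, was called in both directions, with medians of 32.0 CPM in control (25.5 to 52.8), 61.3 CPM with shRNF185.1 (43 to 82.6) and 19.2 CPM with shRNF185.3 (16.0 to 25.7). The libraries of the hairpins did not overlap for Il1rl1, although those of shRNF185.1 and control did. Cpm, a carboxypeptidase (1.26), Rufy4 (0.84), Fam217b (0.82) and Slc2a9, a urate transporter (0.81), were also among the 8 that rose most on the log2 scale. Cpm and Slc2a9 overlapped between shRNF185.1 and control and were not called without batch 1. Cpm was not called without batch 3 or without control library 6 either.

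Of the genes that rose with shRNF185.1 and were uncalled with shRNF185.3, Gda, a guanine deaminase, had the largest log2 fold change (2.14), with 17.3 to 64.6 CPM against 3.83 to 20.2 CPM in control. Gda and Cpm were higher in the odd than in the even library of all 6 pairs of the same group and batch. Each was also higher with shRNF185.1 than in the control library of the same number, for all 6 numbers. Whether the numbers pair the libraries could not be decided, so this describes the values and is no paired test. Sprr2h, a component of the cornified envelope, rose from a median of 11.2 CPM (8.60 to 23.1) to 55.1 CPM (40.9 to 74.1). H2-T23, which encodes the nonclassical class I molecule Qa-1, rose by 1.54, unevenly over the batches (1.56, 0.53 and 2.83), and its value may be limited by reads shared with other H2 genes. Apbb1ip, an adaptor between Rap1 and integrins, rose by 1.12.

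**Figure D2:**
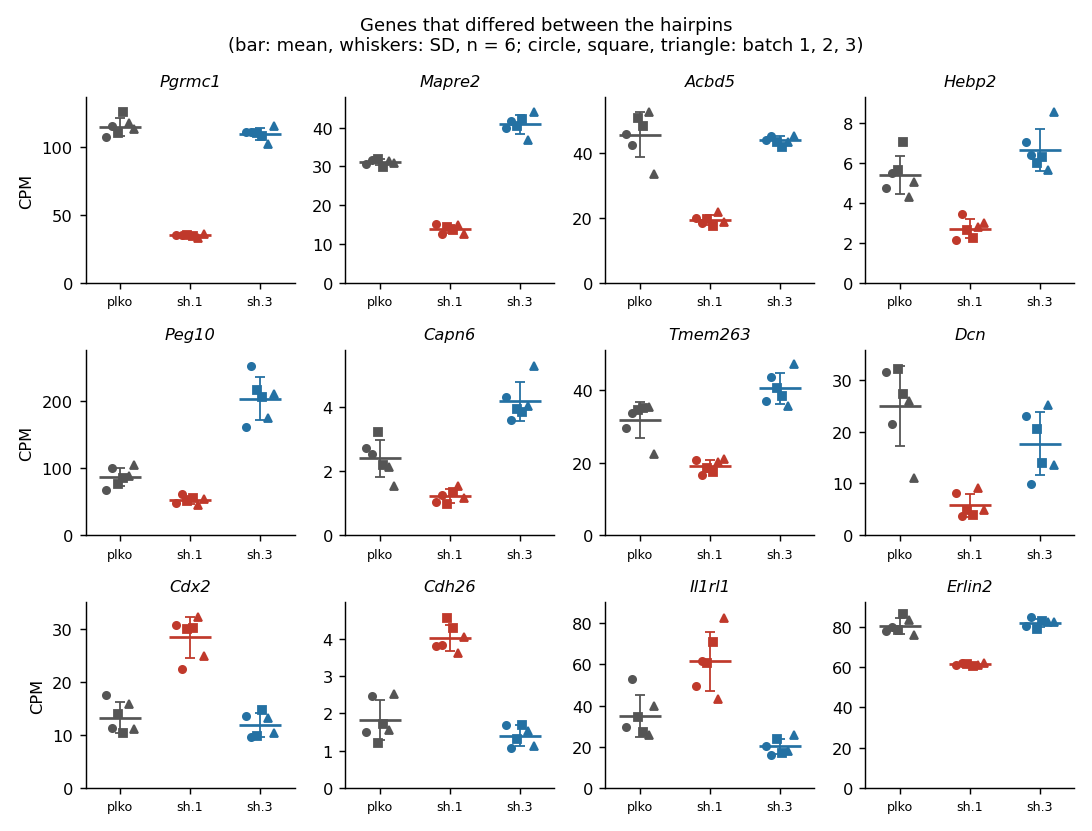
CPM (linear axes from 0) of 12 genes that differed between the hairpins, in the 6 libraries each of plko, shRNF185.1 (sh.1) and shRNF185.3 (sh.3), with the mean as a bar and the SD as whiskers. The shRNF185.1 libraries lie below all others for Pgrmc1, Mapre2, Acbd5, Hebp2, Peg10, Tmem263, Erlin2 and Dcn, and above all others for Cdx2 and Cdh26.

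A property of sequence went with the falls seen with shRNF185.1. For each gene with an annotated 3′ UTR of at least 50 bases (12166 of the 14309 genes), the transcript with the longest 3′ UTR in GENCODE M21 was read, and each of 13971 runs of 7 bases found in at least 200 genes was ranked by the mean log2 change of the genes that hold it minus that of the genes that do not, after allowing for the length and GC content of the 3′ UTR. The run AATGGTA came first of 13971, with a difference of -0.129, and the run shifted by 1 base, ATGGTAA, came second. The third, CGTTAGC, was held by 202 genes and differed by -0.087. AATGGTA was first in batch 1 alone and in batch 2 alone, and second in batch 3 alone, where CGTTAGC was first. In the comparison of shRNF185.3 with control it came at place 4745, with a difference of -0.007, and in the direct contrast of shRNF185.3 with shRNF185.1 it had the highest value of all runs, 0.122. This run was found by searching these data, so the values below describe it and are no test of it.

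The run was present in the 3′ UTR of 1052 genes, 8.65% of those with one. Their median log2 change with shRNF185.1 was -0.0999, against -0.0047 in the 11114 genes without it. It was -0.0933 with 1 copy, -0.151 with 2 or more copies (120 genes), and -0.133 where a further A follows the run (354 genes). In the 506 genes that hold the run in the coding part and not in the 3′ UTR the median was -0.0117, and in the 909 that hold its reverse complement, TACCATT, without the run, it was -0.0043. Genes with the run were called lower in 32.0% and those without it in 13.7%. With shRNF185.3 the medians were -0.0475 with the run and -0.0171 without. Within batches 1, 2 and 3 the medians of the genes with the run were -0.0905, -0.127 and -0.128 with shRNF185.1. Longer 3′ UTRs hold the run more often, with a median length of 2657 bases against 1094. With genes split by 3′ UTR length into 4 classes of like size, the medians with and without it were -0.111 and -0.0296 in the shortest class (37 genes with the run), -0.181 and -0.006 in the second, -0.119 and 0.0145 in the third, and -0.0868 and 0.0061 in the longest.

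**Figure D3:**
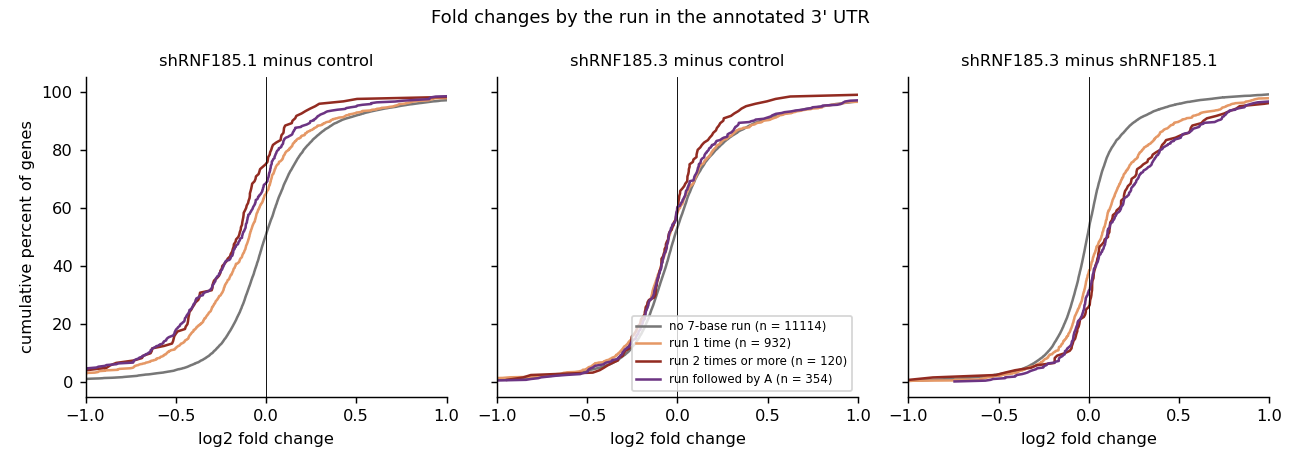
Cumulative percent of genes (vertical axis) by log2 fold change (horizontal axis, shown from -1 to 1) for genes without the run, with 1 copy, with 2 or more copies, and with the run followed by A, in shRNF185.1 minus control, shRNF185.3 minus control and their direct contrast. The lines with the run lie left of the line without it in the first panel and right of it in the last, and lie closer to it in the middle panel.

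The run was more frequent among the genes lower with shRNF185.1 and not with shRNF185.3 than among all genes. It was held by 63 of 188 opposite genes that were lower (33.5%) and by 9 of 174 that were higher (5.17%), each counted among genes with a 3′ UTR. Of the genes lower with shRNF185.1, uncalled with shRNF185.3 and called in the direct contrast, 117 of 360 held it (32.5%). Of the opposite genes that were lower with shRNF185.1 and also called higher with shRNF185.3, 19 of 43 held it (44.2%). The share was 14.3% among genes called lower with both hairpins and 10.6% among all genes called lower with shRNF185.3. Since the run was found from the same fold changes, these shares restate its rank by class and add no independent support. Not all members followed this order. Dcn, Capn6, Sox13, Slc6a4, Rasl11b and Cgref1 fell and have no copy in the 3′ UTR read, whereas Cpm (1.26), Nlrc5 (2.88), Igf1 (1.54), Sema3c (1.62) and Pdgfrb (0.36) rose with 1 copy each.

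The sites below are a selection. They are shown so that the run and its surroundings can be compared between Rnf185, genes that fell with shRNF185.1 and differed between the hairpins, and Cpm, which rose. Each is a window of 30 bases of the 3′ UTR, 5′ to 3′ on the strand of the transcript, from GENCODE M21 on GRCm38, with the run in capitals.
Rnf185 (chr11:3417640-3417669, minus strand): aatgaagggatgaaccaAATGGTAtttaca
Pgrmc1 site 1 (chrX:36605098-36605127, plus strand): ttcagtgctgtaatgcaAATGGTAaagcta
Pgrmc1 site 2 (chrX:36605201-36605230, plus strand): ttccacatactggtcaaAATGGTAagtgca
Pgrmc1 site 3 (chrX:36605228-36605257, plus strand): gcacacacactggtcaaAATGGTAaatgtc
Acbd5 (chr2:23112661-23112690, plus strand): attctttgcactacacaAATGGTAacattt
Hebp2 (chr10:18540798-18540827, minus strand): tccttaataacactgaaAATGGTAatgatg
Tmem263 site 1 (chr10:85116859-85116888, plus strand): ggtgaaatgtgttaacaAATGGTAttttta
Tmem263 site 2 (chr10:85116912-85116941, plus strand): ttctcagtgatctaaatAATGGTAttggag
Cpm (chr10:117686627-117686656, plus strand): gactctgcctgtactaaAATGGTAttaaca
Erlin2 (chr8:27037878-27037907, plus strand): cttaggtgactactataAATGGTAttttct
Peg10 (chr6:4760132-4760161, plus strand): taaagtttagaatgttgAATGGTAaatgtt
Tfe3 (chrX:7774811-7774840, plus strand): cccttcaccttgtagaaAATGGTAatgaaa

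Pgrmc1 holds the run 3 times within its 3′ UTR of 1188 bases, at positions 224, 327 and 354, and each copy is followed by A. Acbd5, Hebp2, Peg10 and Tfe3 hold 1 copy each, also followed by A. Alcam holds 2 copies, 1 of them followed by A, Phex 2, and Mapre2 and Impact 1 each. Rnf185 itself holds the run 1 time in its 3′ UTR of 2008 bases, at position 338. Of 1679 mature mouse microRNAs listed by RefSeq (GRCm38.p6), 0 have bases 2 to 8 complementary to the run. The sequence of the hairpin is not given in the sources used here, so whether the run matches its seed was not tested.

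The pathways are described by lists of genes, with the members called in each direction set beside the 14.6% and 14.3% of all genes that were called higher and lower. The median log2 fold change of all genes tested was -0.02.

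**Figure D4:**
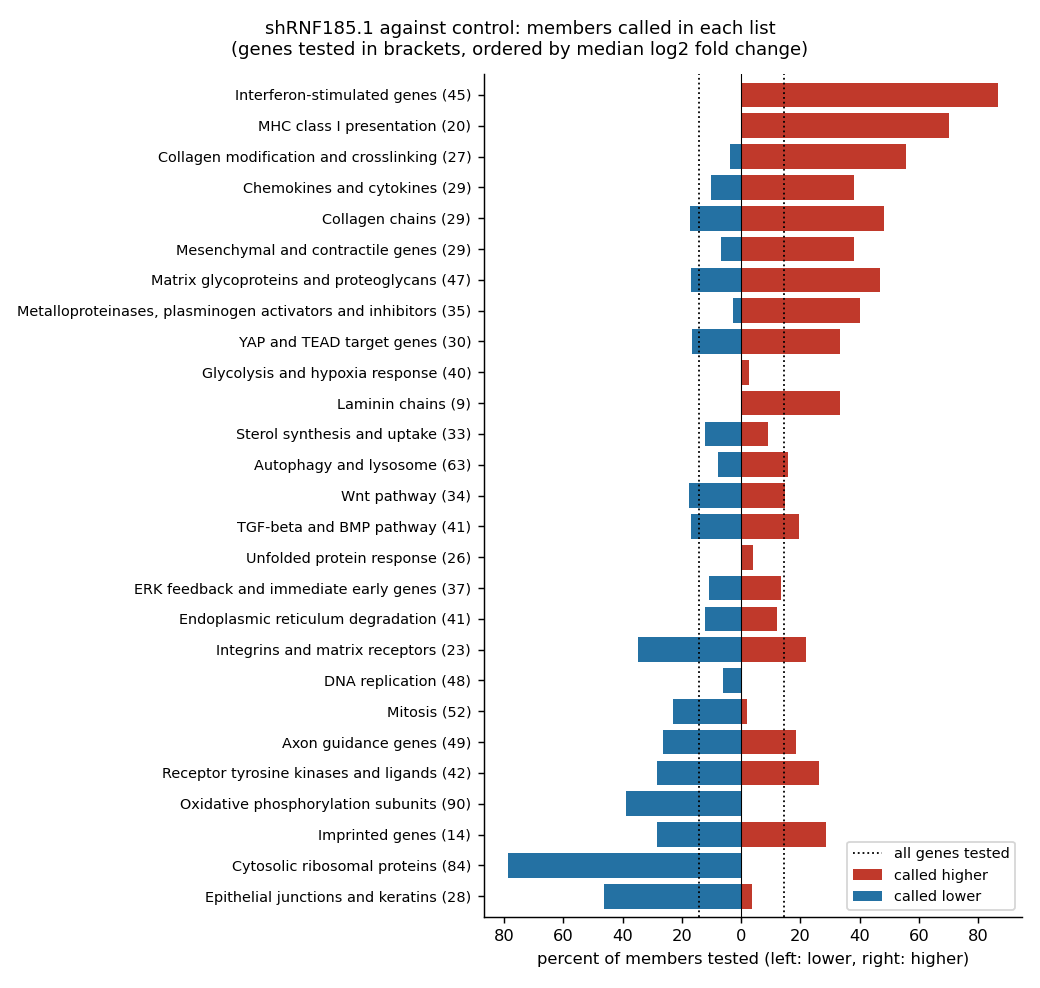
Percent of the members tested that were called lower (left) or higher (right) with shRNF185.1 in each of 27 lists, ordered by median log2 fold change, with the shares over all genes tested as dotted lines. Interferon-stimulated genes and class I presentation genes have the largest shares called higher, and cytosolic ribosomal protein genes the largest share called lower.

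Interferon-stimulated genes, which cells switch on after interferon or viral RNA, were the list with the largest rise. Of 45 tested, 39 were higher and 0 lower, with a median log2 fold change of 1.92. Beside Oas1a and Ifit3, Oas1g rose from 0 to 0.330 CPM in control to 0.579 to 3.01 CPM, and Oas2 from 0 to 0.496 CPM to 0.969 to 3.77 CPM. Oas1g and Oas1a are close copies, so reads may be divided between them. Some members of higher level were chosen after their values were seen: Ifit1 rose by 2.5, Isg15, a ubiquitin-like modifier, by 2.55 and the RNA sensor Ifih1 by 1.26. The score of the list (mean log2 CPM minus the control mean) ran from 1.14 to 2.26 in the shRNF185.1 libraries and from -1.05 to 0.63 in control, without overlap. Control library 6 was the lowest at -1.05. Over all 16 alternatives, of which leaving out that library is 1, the number of members higher ranged from 27 to 40. The median was 2.3 in batch 1, 0.75 in batch 2 and 2.57 in batch 3. With shRNF185.3, 36 of the 45 were higher.

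In class I antigen presentation, peptides cut by the immunoproteasome are carried into the endoplasmic reticulum and shown on the cell surface. Its genes followed the same direction, with 14 of 20 higher and 0 lower (median 0.61). The counts with shRNF185.3 were also 14 higher and 0 lower. Nlrc5, the transactivator of class I genes, rose from a median of 0.281 CPM (0.0234 to 0.465) to 1.89 CPM (1.71 to 2.13). Psmb8, an immunoproteasome subunit, rose from 2.09 CPM (1.26 to 2.59) to 12.7 CPM (9.42 to 18.9), and Psmb9, which overlapped, by 1.78 on the log2 scale. H2-Q4, a class I gene whose reads may be shared with its relatives, rose by 2.62. Of chemokines and cytokines, 11 of 29 were higher and 3 lower. Ccl5, which attracts T cells, rose from 5.0 CPM (3.20 to 7.02) to 14.1 CPM (9.98 to 18.3) and Cxcl9, induced by interferon gamma, from 0.558 CPM (0.278 to 0.785) to 1.63 CPM (1.35 to 1.98). Il1a rose by 1.45 and Tnfsf10, the death ligand TRAIL, by 1.42. Of these 4, Tnfsf10 overlapped between the groups, and it was not called without batch 1 or without batch 3.

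Collagen chains moved in both directions with shRNF185.1. Of 29 tested, 14 were higher and 5 lower, with a median of 0.25, whereas with shRNF185.3 22 were higher and 0 lower. Col1a1, a chain of type I collagen, rose from a median of 83.9 CPM (46.6 to 109) to 160 CPM (120 to 327), by 1.29 (SE 0.29). Col11a1 rose by 2.08, Col24a1 by 1.62 and Col5a2 by 1.16, the last with overlap and not called without batch 1 or without batch 3. All 5 chains that fell are opposite genes. Col1a2, the partner chain of Col1a1 in type I collagen, fell from a median of 369 CPM (339 to 425) to 245 CPM (190 to 327) and rose to 556 CPM (438 to 635) with shRNF185.3. Its log2 fold changes were -0.56 (SE 0.13, edgeR adjusted p 0.00306) and 0.55 (adjusted p 0.00379), so the chains of type I collagen went apart with shRNF185.1, and the fall was -0.58, -0.60 and -0.58 in the 3 batches. Col18a1 and Col7a1, of basement membrane and anchoring fibrils, fell by 0.28 and 0.43. Col2a1 and Col22a1 fell by 1.07 and 0.73 from control means of 0.487 and 1.27 CPM. The median of the list was 0.52, -0.01 and 0.43 in batches 1, 2 and 3.

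The enzymes that modify and crosslink collagen had 15 of 27 members higher and 1 lower. Loxl1, a lysyl oxidase, rose from a median of 11.4 CPM (8.56 to 15.6) to 39.5 CPM (28.3 to 47.8), by 1.71 (SE 0.19), and Serpinh1, the collagen chaperone HSP47, from 5.59 CPM (3.36 to 8.64) to 17.1 CPM (13.6 to 24.2), by 1.63 (SE 0.22). Neither overlapped. Both were higher with shRNF185.1 than with shRNF185.3, at direct adjusted p-values of 0.00262 and 0.0114. Loxl2 rose by 1.05 over all libraries but was lower than control in batch 2 (-0.67). Loxl2 was not called in 6 of 16 alternatives. Without batch 1, without batch 3 or without control library 6 it lost its call. The same held with a batch covariate, with libraries of a group and batch summed, and with only the shRNF185.1 and control libraries. P3h4 was the member that fell (-0.87), and it was not called without batch 1 or without batch 2. The number of members higher ranged from 8 to 18 over the alternatives.

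Of matrix glycoproteins and proteoglycans, 22 of 47 were higher and 8 lower. Fbln5, an elastic fibre protein, rose from 2.79 CPM (2.01 to 4.63) to 13.0 CPM (9.27 to 14.6), by 2.03 (SE 0.18), and rose less with shRNF185.3 (0.92, direct adjusted p 0.000147). Ogn, osteoglycin, rose by 1.78 with overlap. On the lower side were Dcn and Npnt, described above, and the opposite genes Fbn2, Sdc2 and Ccn4. Sdc2, a heparan sulfate proteoglycan of the cell surface, fell from 45.0 CPM (40.4 to 46.6) to 28.1 CPM (25.1 to 32.6), with 46.4 CPM (40.2 to 51.0) under shRNF185.3, so that the shRNF185.1 libraries lay below all others. Of 9 laminin chains 3 were higher and 0 lower: Lama4 rose by 1.78, Lamc1 by 0.74 and Lamb2 by 0.73. Lamc1 had a narrow spread, 260 to 292 CPM in control and 439 to 480 CPM with the hairpin. Of metalloproteinases, plasminogen activators and inhibitors, 14 of 35 were higher and 1 lower. Mmp19 rose from 8.16 CPM (5.77 to 9.20) to 26.3 CPM (17.8 to 35.5), without overlap.

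Integrins and other matrix receptors had 5 of 23 members higher and 8 lower. The collagen receptors among them went apart: Itga1 rose by 0.87 and Mrc2, which takes up collagen, by 1.09, while Itga11 fell from 9.70 CPM (6.36 to 13.8) to 4.80 CPM (3.57 to 5.83) and was uncalled with shRNF185.3 (direct adjusted p 0.00215). Of the 8 that fell, Itgav, Itgb3, Itgb7 and Itgb8 are opposite genes. Itgav, the alpha chain that pairs with the beta chains Itgb3 and Itgb8, fell from a median of 205 CPM (158 to 226) to 161 CPM (142 to 169) and rose to 238 CPM (230 to 256) with shRNF185.3. The shRNF185.1 and control libraries overlapped for all 4. Itgb4, the integrin of hemidesmosomes, fell by 1.44 and was not called without batch 2.

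Genes of epithelial junctions and keratins fell, with 13 of 28 lower and 1 higher and a median of -0.37. The counts with shRNF185.3 were also 13 lower and 1 higher. Of the 28, 7 were higher and 1 lower in odd libraries, and the counts with shRNF185.1 were the same with that term. Cdh1, E-cadherin, fell from a median of 31.2 CPM (24.2 to 57.7) to 8.85 CPM (5.83 to 13.9), by 1.91 on the log2 scale (SE 0.25), without overlap. Jup, plakoglobin, fell from 75.1 CPM (59.0 to 101) to 37.8 CPM (28.7 to 49.0), and Dsp, desmoplakin, by 1.44 with overlap. Krt18 fell from a mean of 354 to 177 CPM and Krt8 from 1200 to 829 CPM. The median of the list was lower in batch 2 (-0.79) than in batches 1 and 3 (-0.24 and -0.08). Of mesenchymal and contractile genes, 11 of 29 were higher and 2 lower, against 16 higher and 1 lower with shRNF185.3. Cnn1, calponin, rose from 0.786 CPM (0.467 to 1.82) to 3.36 CPM (2.47 to 6.75), Myl9, a myosin light chain, from 1.14 CPM (0.724 to 2.23) to 4.63 CPM (4.09 to 5.15), and Lmod1 by 1.03. Nt5e, the ecto-enzyme CD73, was one of those that fell (-1.01), with a difference of -0.01 in batch 3. It was not called without batch 1 or without batch 2, nor Lmod1 and Dsp without batch 1. Axl, a receptor tyrosine kinase, was an opposite gene and rose by 0.27 to 883 to 998 CPM from 730 to 869 CPM, with 733 to 791 CPM under shRNF185.3.

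**Figure D5:**
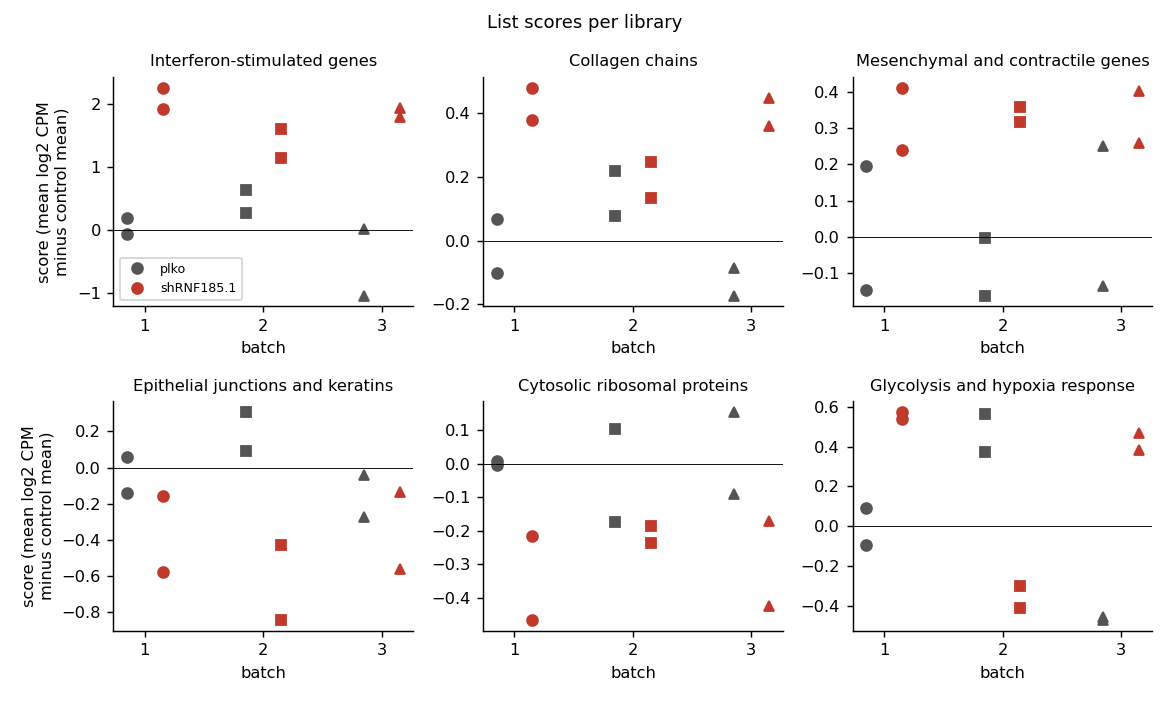
Score of 6 lists (mean log2 CPM of the members minus the control mean, vertical axis) in each plko and shRNF185.1 library by batch (horizontal axis). The interferon scores of shRNF185.1 lie above all control scores in every batch, and the glycolysis and hypoxia scores lie above control in batches 1 and 3 and below it in batch 2.

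The machinery of endoplasmic reticulum degradation, to which Rnf185 belongs, had 5 of 41 members higher and 5 lower, Rnf185 among the latter. The share called, 24.4%, was near the 28.9% over all genes. Herpud1, which recruits the ligase complexes, rose from 49.3 CPM (44.0 to 59.8) to 71.8 CPM (63.2 to 77.0), by 0.52 (SE 0.08), and Rnf145, another ligase of that membrane, by 0.29. Erlin2, which forms a membrane complex that targets sterol-regulated proteins, fell from 79.3 CPM (76.1 to 86.6) to 61.4 CPM (60.6 to 62.0) and was at 82.4 CPM (79.2 to 85.0) with shRNF185.3. It is one of 3 opposite genes here, with Sel1l and Herpud2, which rose by 0.16 and 0.29. Of 26 genes of the unfolded protein response 1 was higher, Eif2ak3 (0.39, not called without batch 1 or without batch 3), and 0 lower. That list had 0 to 6 members called higher over the alternatives in edgeR, limma and DESeq2.

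Sterol synthesis and uptake, which the endoplasmic reticulum controls through SREBP factors, had 3 of 33 members higher and 4 lower, 21.2% called. Of the 33, 22 were higher in odd than in even libraries, and with that term 4 were higher and 4 lower with shRNF185.1. Sc5d, a late desaturase, fell by 0.48 and Mvk, mevalonate kinase, rose by 0.33, both with overlap. Sc5d holds the run AATGGTA in its 3′ UTR.

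Imprinted genes, expressed from the copy of 1 parent, had 4 of 14 members higher and 4 lower, and 3 of those that fell were opposite genes. Peg10, a gene of retrotransposon origin, ranged from 67.8 to 104 CPM in control, from 44.6 to 61.1 CPM with shRNF185.1 and from 161 to 252 CPM with shRNF185.3. No group overlapped another, and the log2 fold changes were -0.73 (SE 0.11, adjusted p 7.49e-05) and 1.23 (adjusted p 2.09e-07) in edgeR. Grb10, an adaptor that restrains insulin signalling, fell from 35.3 CPM (31.7 to 39.7) to 22.9 CPM (20.8 to 29.3), and was at 37.4 CPM (33.0 to 41.7) with shRNF185.3. The third was Impact. Cdkn1c, a cell cycle inhibitor, rose by 1.08 from a mean of 0.265 CPM and was not called in 4 of 15 alternatives.

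Signalling lists held members going both ways. Of receptor tyrosine kinases and their ligands, 11 of 42 were higher and 12 lower. Igf1 rose from 6.99 CPM (6.21 to 7.81) to 19.5 CPM (14.7 to 26.1), while Areg, a ligand of the EGF receptor, fell from 16.4 CPM (12.8 to 23.7) to 5.51 CPM (3.65 to 6.85). Fgf10 rose by 1.38, and by more than with shRNF185.3 (direct adjusted p 0.0145). Of TGF-beta and BMP genes 8 of 41 were higher and 7 lower. Among ligands, Tgfb2 rose by 0.64 and Inhba fell by 0.71. The coreceptor Tgfbr3 rose by 0.65, and the target and antagonist of differentiation factors Id4 fell from 9.23 CPM (8.07 to 11.2) to 3.54 CPM (2.99 to 4.46). Ski, a repressor of SMAD factors, was an opposite gene (0.18 and -0.12). Of Wnt genes 5 of 34 were higher and 6 lower, with Dkk3, Lef1, Wnt7b and Porcn at 0.99, 0.68, -1.49 and -0.76. Lef1 was not called without batch 1 or without batch 3, and Wnt7b and Porcn were not called without batch 2. The opposite genes of that list were the transcription factor Tcf7, which fell from 23.8 CPM (21.9 to 26.9) to 18.9 CPM (17.2 to 19.4), and Rnf43, which rose by 0.50 and fell by 0.64 with shRNF185.3. The lists of ERK feedback (5 of 37 higher, 4 lower) and Wnt genes had called shares of 24.3% and 32.4%, against 28.9% over all genes.

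Of YAP and TEAD targets 10 of 30 were higher and 5 lower. Vgll3, a TEAD cofactor, rose from 1.25 CPM (0.607 to 2.20) to 6.72 CPM (3.59 to 7.72) and was higher than with shRNF185.3 (direct adjusted p 0.0224), while Igfbp3 fell by 0.68 and was not called without batch 2. Of axon guidance genes 9 of 49 were higher and 13 lower. Sema3c, a secreted semaphorin, rose from 174 CPM (114 to 226) to 531 CPM (452 to 586), by 1.62 (SE 0.13), Sema4a rose by 1.49, and Sema4d and the ephrin receptor Epha4 fell by 1.41 and 1.16. In autophagy and the lysosome 10 of 63 were higher and 5 lower, a called share of 23.8% against 28.9% over all genes. The protease Ctsb rose from 309 CPM (278 to 362) to 505 CPM (436 to 594), Gabarapl1 by 0.63, and Ctsh fell by 1.07. Tfe3, a transcription factor that drives lysosomal genes, fell from 94.8 CPM (90.9 to 101) to 67.7 CPM (61.9 to 72.2), with 103 CPM (97.1 to 110) under shRNF185.3, an opposite gene that holds the run AATGGTA.

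Of 84 cytosolic ribosomal protein genes 66 were lower and 0 higher, with a median of -0.28 that lay between -0.31 and -0.25 over all alternatives. With shRNF185.3, 41 of the 84 were lower and 0 higher. Rps3 fell from a median of 935 CPM (888 to 1038) to 732 CPM (651 to 795), and Rpl5 by 0.57. The number lower ranged from 23 (without batch 1) to 75. For 24 of the 84 the shRNF185.1 libraries lay wholly below control, as they did for 5.77% of all genes tested. Of 90 subunits of oxidative phosphorylation 35 were lower and 0 higher (median -0.15), and 11 to 38 were lower over the alternatives. The counts of these subunits with shRNF185.3 were 21 lower and 0 higher. With odd and even numbers as a term, 63 of the ribosomal protein genes and 27 of the subunits were lower in odd libraries and 0 of either higher, and 75 and 38 were lower with shRNF185.1. Cox7c fell from 52.8 CPM (50.3 to 61.7) to 41.3 CPM (37.3 to 44.6). The mitochondrial transcript mt-Nd3 fell by 0.73 and mt-Nd2 by 0.48, and in batch 2 mt-Nd2 differed by 0.01. Neither was called without batch 1, nor mt-Nd2 without batch 3. Of 52 mitosis genes 12 were lower and 1 higher, and of 48 DNA replication genes 3 were lower and 0 higher. In batch 2 the medians of these lists were above 0, at 0.05 for mitosis and 0.25 for replication, and in batches 1 and 3 they were below 0. In odd libraries 16 mitosis and 21 replication genes were lower than in even ones. Among the cyclins, Ccna2, cyclin A2, fell from 324 CPM (300 to 385) to 205 CPM (166 to 225), and Ccne2, cyclin E2, fell from 37.6 CPM (32.7 to 51.3) to 18 CPM (12.4 to 21.1). Both fell less with shRNF185.3, at direct adjusted p-values of 5.92e-05 and 0.00105. The number of mitosis genes lower ranged from 2 to 18. Of 40 genes of glycolysis and the hypoxia response 1 was higher and 0 lower. Their median was 0.46 in batch 1, -0.66 in batch 2 and 0.76 in batch 3, and the number higher ranged from 0 to 28, the latter without batch 2.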

How the data were processed

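RNA was sequenced in 18 libraries, and 6 shRNF185.1 and 6 control libraries are compared here, with 6 shRNF185.3 libraries for the direct contrast. Polyadenylated RNA was selected and strand-specific libraries were read from 1 end, per the labels' protocols. Per the submitters' processing notes, cutadapt 2.3, STAR 2.7.0d and RSEM 1.3.1 were used with the mm10 build. The authors deposited expected counts, named for ComBat-Seq, of which 0.466% are not whole; they were rounded here, although whole counts had been assumed. How the batch adjustment treated the groups and whether counting used strand are not given in the sources used here. The deposited CPM, a normalised signal, are the per-library values printed.

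Genes were kept with filterByExpr (minimum count 10) in R 4.3.3 with edgeR 4.0.16, scaled by TMM and tested with the quasi-likelihood F test on all 18 libraries with a mean per group, adjusted by Benjamini-Hochberg over 14309 genes and called under 0.05. Alternatives used DESeq2 1.42.0, limma 3.58.1, other scalings and filters, batch, replicate or odd and even number terms, and fewer libraries. No library pair of a group looked duplicated (chi-square per gene at least 7.64). On simulated counts, 99% of 2-fold and 87% of 1.5-fold changes were recovered. The simulated libraries had no differences between batches or between odd and even numbers, and the changed genes had a mean count of at least 50. Recovery where such differences are present was not tested. Of those 200 changed genes, all given to shRNF185.1 alone, 100 were counted as opposite, since the sign of an absent change is arbitrary.

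Genes named individually are Rnf185 and Col3a1; the 8 with the largest rise and fall among called genes with 1 direction in all batches; the 8 with the largest rise and fall among opposite genes; the 6 with the largest rise and fall among those uncalled with shRNF185.3 and called in the direct contrast (each class limited to a mean count of 50 or more and to genes that are not predicted models); and up to 4 called members of each of 28 lists. Ifit1, Isg15, Ifih1 and list members named as opposite were chosen after their values were seen. Some genes that the rule names are not reported here. The members and lists were chosen with earlier results of these data known. The search for 7-base runs was also added after seeing the data.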

Additional observations from a re-analysis of the deposited data

Results flagged for a closer look

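In groups of 6 libraries, a library was singled out when its gap to the nearest other, as a share of the range of its group, exceeded Dixon's 95% critical value for 6 values. Both groups were examined for 43 genes (Rnf185, Col3a1 and those with the largest changes), the 28 list scores and the total count. This happened in 7 of these 144 cases, where chance gives about 7.2. On the scale of log2(CPM + 1), Ifit3 in control library 6 was at 0.861, with the nearest at 1.86. Phex in control library 5 was at 2.47 (nearest 1.9), and Rasl11b in control library 2 at 1.93 (nearest 2.21). With shRNF185.1, Oas1a in library 5 was at 2.67 (nearest 3.50), and Tmem119 in library 6 at 4.72 (nearest 4.04). The score of TGF-beta and BMP genes was 0.0808 in control library 3 (nearest 0.00448). The score of the markers of other cell types was -0.414 in control library 6 (nearest -0.0140). Control library 6 was also the lowest in the interferon score, and 128 of 134 named genes stayed called without it.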

How the results depend on the processing

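Over 16 alternatives, of which odd against even numbers as a term was chosen after seeing the data, 104 of 134 named genes stayed called in the same direction in each, and 30 were not called in at least 1. Of 2128 values 86 lost their call and 0 changed sign. Leaving out batch 1 had the largest effect: 2207 genes were called (1180 higher, 1027 lower) and 144 were opposite. Of these 144 genes, 123 were also opposite with all libraries. Without batch 2, 228 genes were opposite, of which 137 were also opposite with all libraries. Dropping batch 3 gave 356 opposite genes, and 176 of them were opposite with all libraries. The number called was 5119 without batch 2 and 2926 without batch 3, although each of these settings leaves out equally many libraries. Why the batches differed in this was not tested. Apart from the setting without batch 1, the alternatives kept the number called within 1.5 times of 4141, and the percent higher between 49.6 and 56.8.

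Whether the replicate numbers pair the libraries could not be decided from correlations of the libraries' deviations from their group mean. Same-numbered libraries of shRNF185.1 and control had correlations from -0.628 to 0.187, with a mean of -0.193, and 0 of 12 correlated best with its own number. Libraries of the same batch and the other number had a lower mean of -0.599. Both means were negative, so differences between batches that the groups did not share may hide a pairing. Between odd and even numbers, 2086 genes differed. With the replicate block 3811 genes were called, 3644 of them also without it, and 366 were opposite. Rnf185 was at -2.63 and Col3a1 at 1.11 (adjusted p 1.5e-05) with the replicate block.

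Depth limits genes near 3 counts, or 0.0692 to 0.125 CPM. Counting intervals cover counting error only, since reads carry no molecular identifiers.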

Other observations

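Predicted genes were left out of the named genes, yet a group of them was among the opposite genes with the largest changes, chosen after their values were seen. Gm10800 ranged from 13.8 to 23 CPM in control, from 6.37 to 11.3 CPM with shRNF185.1 and from 23.3 to 34.0 CPM with shRNF185.3. Gm26870 ranged from 7.94 to 16.7, from 4.59 to 6.11 and from 13.5 to 23.2 CPM in the same order. Gm10801 and Gm10718 had log2 fold changes of -0.94 and -1.32 with shRNF185.1 and of 0.75 and 0.97 with shRNF185.3. All 4 were called in both comparisons, with edgeR adjusted p-values of 3.69e-05, 0.000262, 0.00977 and 0.00868 with shRNF185.1. Whether reads are shared between these gene models was not tested.

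Dbn1 was also called in opposite directions, and was chosen after its values were seen. Dbn1, which encodes the actin-binding protein drebrin, had medians of 23.7 CPM in control (17 to 28.8), 15.9 CPM with shRNF185.1 (13.2 to 16.3) and 38.3 CPM with shRNF185.3 (34.5 to 45.2). No group overlapped another for Dbn1.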
